A study of Homo sapiens with 14 samples.

Results

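Each of 3 human cancer cell lines was represented by a pair of RNA sequencing libraries from cells given an siRNA against ADAR, and the library numbered 2 was compared with the library numbered 1. The comparison took 6 of the 14 libraries of the series by cell line and by the number in their labels, and set them against each other within a line, which gave 3 pairs. The libraries of MDA-MB-231 were left out. BT-549 is a triple-negative breast cancer line, NCI-H1395 a lung adenocarcinoma line and AGS a gastric adenocarcinoma line. All 6 libraries had ADAR siRNA, so the numbers do not differ in treatment as far as the labels go. The lone control siRNA library of each line, 3 in all, is given beside them as background and serves both numbers. The labels call the numbered libraries replicates. Whether the numbers mark separate siRNAs, cultures or days is not given in the sources read, and these cannot be told apart. The p-values rest on how far the difference between the numbers varied over 3 lines with 1 pair each. They rest still more on variance shared across genes, so they do not measure the spread of a single gene over the lines.

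ADAR encodes ADAR1, the enzyme that changes adenosine to inosine in double-stranded RNA and so keeps a cell's own RNA from setting off the sensors of viral RNA, which switch on interferon genes, the kinase PKR and RNase L. An siRNA is a short RNA duplex whose guide strand, held by an Argonaute protein, pairs along its length with the target transcript and has it cut. A guide strand can also act as a microRNA does. Pairing of only its bases 2 to 8, the seed, with a 3′ untranslated region (3′ UTR) can lower a transcript that was not its target.

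The 6 libraries held from 14858945 to 23378934 counts in genes. VIM and AXL, mesenchymal genes, were high in BT-549 and NCI-H1395 (VIM at 1280 CPM or more in all their libraries). Of 20 mesenchymal markers 18, 17 and 10 reached 1 CPM in BT-549, NCI-H1395 and AGS. Not all were high: CDH2 was at 0.0913 CPM or less in BT-549 and THY1 at 0.129 CPM or less in NCI-H1395. The epithelial keratins KRT8 and KRT18 were at 1280 CPM or more in AGS. NCI-H1395 held them too, KRT8 at 166 to 237 CPM and KRT18 at 386 to 583 CPM. CPM is the count of a gene scaled for the size of the library. All 12 lung lineage markers looked at, NKX2-1, NAPSA and SFTPB among them, were under 1 CPM in the 3 libraries of NCI-H1395, so its labelled origin is not visible in them. In AGS 8 of 16 stomach markers were at 1 CPM or more, led by CDH17, GATA6 and HNF4A. The other 8, MUC5AC, MUC6, GKN1, PGC and CLDN18 among them, were under 1 CPM in its 3 libraries. GATA6 was also at 14.2 CPM or more in every library of BT-549 and NCI-H1395. The stomach markers thus show the labelled origin of AGS only in part. Of 12 breast markers 6 reached 1 CPM in BT-549, but 5 did in NCI-H1395 and in AGS too, so they do not set BT-549 apart. Transcripts of the 13 mitochondrial genes summed to between 28700 and 49800 CPM in the 6 libraries. Library 1 held 49800, 28700 and 44600 CPM of them and library 2 47800, 34000 and 31900 CPM (BT-549, NCI-H1395, AGS), and their part in the differences below was not tested.

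ADAR itself was low in both libraries of every line. ADAR (ENSG00000160710.18; hg38, chromosome 1, 154581695 to 154628013, minus strand) stood at 787, 392 and 778 CPM in the control library of BT-549, NCI-H1395 and AGS. In library 1 it stood at 102, 41.9 and 136 CPM, which is 13%, 10.7% and 17.6% of the control. In library 2 it stood at 92.2, 46.1 and 185 CPM, or 11.7%, 11.8% and 23.8% of it. The ratio of library 2 to library 1 was below 1 in BT-549 and above it in the other lines, and the fitted log2 difference was 0.14 ± 0.16 (SE; edgeR quasi-likelihood test, Benjamini-Hochberg adjusted p = 0.759, 3 pairs). In AGS, where the gap was the largest of the 3, the log2 ratio was 0.40. ADARB1, which encodes the other active editing enzyme, ADAR2, had a log2 difference of -0.17 ± 0.19 (adjusted p = 0.738). NOP14, a small ribosomal subunit assembly factor that the study also manipulated in MDA-MB-231, was at 30.8, 144 and 66.2 CPM in library 1 and 19.9, 78.0 and 54.4 CPM in library 2, a log2 difference of -0.61 ± 0.17 that did not pass the test (adjusted p = 0.149).

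At these similar ADAR levels 84 of 15882 genes differed between the library numbers at an adjusted p under 0.05. Of these, 44 were higher in library 2 (0.277% of genes tested) and 40 lower (0.252%). All 40 lower genes were lower in each of the 3 lines, as were 42 of the 44 higher genes higher in each. Among all genes tested, 19.2% were higher and 17.8% lower in library 2 in all 3 lines. A call came from a fit over these same 3 pairs, which favours genes with 1 direction. The agreement of the lines among called genes is thus not separate evidence. At an unadjusted p under 0.05, 7.80% of genes were higher and 6.50% lower, together 2271 genes against 794.1 expected with no difference. The split between directions moved with the scaling: with library totals in place of TMM factors (trimmed mean of M values) 61 genes were higher and 30 lower. Without the pairing by cell line edgeR called 0 genes. Across the 11688 genes at 1 CPM or more in every line, the log2 ratios correlated at Spearman's rho = 0.49 between BT-549 and NCI-H1395, 0.20 between BT-549 and AGS and 0.23 between NCI-H1395 and AGS. The points of these correlations are genes of the same libraries, so no p is given.

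**Figure D1:**
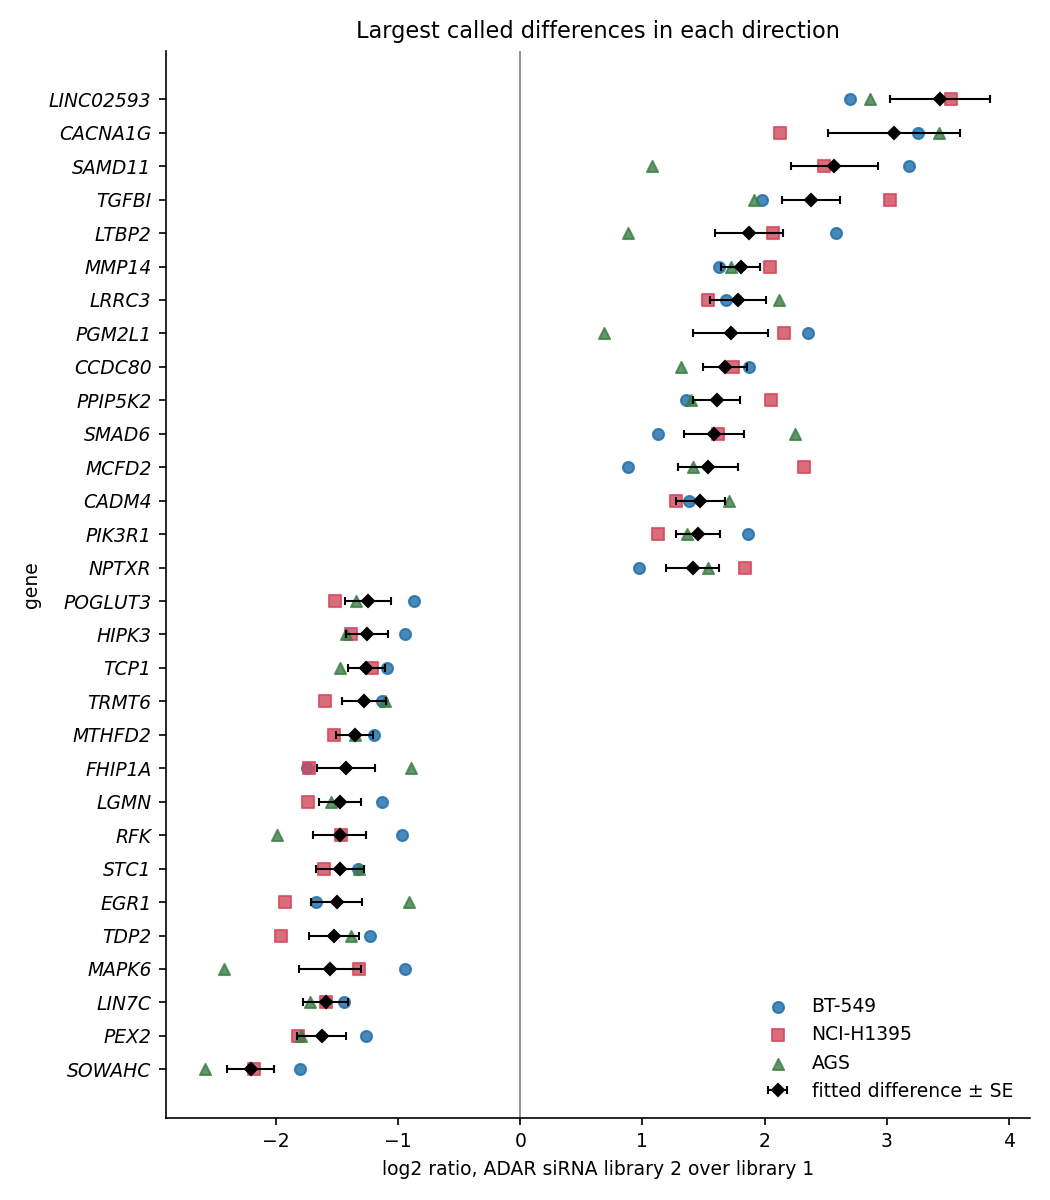
The 15 largest called differences in each direction, as log2 ratio of ADAR siRNA library 2 over library 1 on the horizontal axis. Coloured points are the 3 cell lines, black diamonds the fitted difference with its standard error. All 3 lines lie on 1 side of 0 for each gene, as the rule that picked the genes required. The fitted differences run from LINC02593 at 3.44 to SOWAHC at -2.21.

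The genes that were lower in library 2 had, for the most part, kept the control level in library 1. SOWAHC (ENSG00000198142.5; chromosome 2, 109614364 to 109618990), an ankyrin-repeat protein, led them. It stood at 33.1, 41.0 and 272 CPM in library 1 of BT-549, NCI-H1395 and AGS and at 9.5, 8.77 and 46.7 CPM in library 2, with 31.8, 38.6 and 305 CPM in the controls. Library 2 was thus the low library of each line, and the other libraries lay close together. The log2 difference was -2.21 ± 0.19 (edgeR adjusted p = 0.00395). LIN7C (ENSG00000148943.12; chromosome 11, 27494418 to 27506769), a scaffold protein of cell junctions, stood at 27.2, 34.1 and 78.2 CPM in library 1 and 10.1, 11 and 24.3 CPM in library 2 (controls 36.1, 48.4 and 75.5 CPM; -1.59 ± 0.18, adjusted p = 0.0122). PEX2, which peroxisomes need for protein import, fell from 54.9, 45.5 and 26.8 CPM to 23.0, 12.6 and 7.89 CPM (-1.63 ± 0.20, adjusted p = 0.0124). Neither gene had a line in which library 2 reached the control or library 1.

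MTHFD2 (ENSG00000065911.13; chromosome 2, 74186172 to 74217565), a mitochondrial enzyme of folate metabolism that many tumours raise, stood at 190, 218 and 610 CPM in library 1 and 83.3, 74.0 and 246 CPM in library 2. Its control level was 160, 153 and 518 CPM, so library 1 was above the control and library 2 below it in each line. The log2 difference was -1.36 ± 0.15 (edgeR adjusted p = 0.0122). TCP1, a subunit of the CCT chaperonin that folds actin and tubulin, went from 697, 340 and 267 CPM to 330, 143 and 98.9 CPM (-1.26 ± 0.15, adjusted p = 0.0124). TDP2, which clears topoisomerase II from DNA ends, went from 59.3, 50.8 and 44.7 CPM to 25.4, 12.7 and 17.6 CPM (-1.52 ± 0.20, adjusted p = 0.0170). RFK, the kinase that makes flavin cofactor from riboflavin, and LGMN, a protease of the lysosome, differed by -1.48 ± 0.22 and -1.48 ± 0.17.

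MAPK6, which encodes the atypical kinase ERK3, was at 96.6, 191 and 254 CPM in library 1 and 50.5, 75.0 and 48.5 CPM in library 2 (-1.56 ± 0.26, adjusted p = 0.0323). The controls, at 86.7, 130 and 127 CPM, lay between the numbered libraries in each line. EGR1, an immediate early transcription factor, was at 34.6, 424 and 424 CPM in library 1 and 10.9, 109 and 232 CPM in library 2 (-1.5 ± 0.21, adjusted p = 0.0175). Its controls were at 4.58, 22.8 and 443 CPM, so in BT-549 and NCI-H1395 both ADAR siRNA libraries exceeded the control. With the controls in the fit, EGR1 was no longer called (adjusted p = 0.424). STC1, a secreted glycoprotein hormone, was at 78.6 and 106 CPM in library 1 of BT-549 and NCI-H1395 and at 31.4 and 34 CPM in library 2, with about 1 CPM or less in AGS (1.12 and 0.40 CPM), and without NCI-H1395 it narrowly missed the threshold (adjusted p = 0.0508). FHIP1A, TRMT6, HIPK3 and POGLUT3 completed the 15 lower genes, with log2 differences from -1.43 to -1.25. They encode a dynein cargo adaptor subunit, a tRNA methyltransferase subunit, a homeodomain-interacting kinase and an O-glucosyltransferase of EGF repeats. POGLUT3 was also under the control in library 1 (53.9, 53.5 and 75.3 CPM against 76.3, 107 and 103 CPM).

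Of the other 25 lower genes a few are named here after their values were seen. VCL, the focal adhesion protein vinculin, went from 622, 557 and 393 CPM to 373, 186 and 160 CPM, and FERMT2 and FLII, an integrin activator and an actin-binding protein, differed by -1.12 ± 0.18 and -1.10 ± 0.17. The list of actin cytoskeleton and SRF target genes, in which VCL was the 1 gene called, had a median of 0.06. In it 11 of 19 genes were above 0, against 52.6% of all genes tested. EGFR, the receptor of epidermal growth factor, went from 418, 95.5 and 534 CPM to 212, 42.2 and 260 CPM (-1.07 ± 0.15, adjusted p = 0.0175). NCAPD2, a condensin subunit, and SMARCA5, an ATPase of chromatin remodelling, differed by -1.19 ± 0.15 and -1.21 ± 0.19. Over all 40 lower genes library 2 was under the control in all 3 lines for 39, and the control was nearer to library 1 than to library 2 in all 3 lines for 36.

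A short sequence was shared by nearly all of the lower genes. Every 7-base word was looked for in the 3′ UTRs of 10134 genes, 1 annotated transcript each (GENCODE 29, GRCh38), and genes with a word were compared with genes without it after removal of the trend with UTR length and GC content. Of 15308 words present in at least 100 UTRs, AAATGCA and TAAATGC had the most negative standardized difference in the fit. They overlap, and together spell TAAATGCA. They also took the lowest ranks, 1 and 2, in each line taken alone, and the lines share no library. Genes with TAAATGC, held by 14.6% of UTRs, differed in mean log2 ratio by -0.093, -0.160 and -0.101 in BT-549, NCI-H1395 and AGS. For AAATGCA, held by 20.6% of UTRs, the differences were -0.078, -0.147 and -0.104. Of the 40 lower genes 36 (90.0%) held at least 1 of these words in the UTR, against 26.7% of all genes with a UTR read, and 16 (40.0%) held all 8 bases, against 5.83%. EGR1, LGMN, ARPP19 and PPP1CC held neither. The words of the higher end, described below, were held by 13 of the 40 (32.5%, against 21.5% of all genes). The lower genes had a median UTR of 1764 bases against 1064 over all genes, and longer UTRs hold more words of any kind. The words were also picked on the fit that called these genes, so part of the excess was set by that choice.

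The matches are shown for 7 lower genes, as 30 bases of the transcript strand from GENCODE 29 on GRCh38, with the bases of TAAATGCA that are present in capitals.
SOWAHC chr2:109617313-109617342, plus strand: atttctatattTAAATGCtgctggctattc
LIN7C chr11:27497853-27497882, minus strand: acatcaaattaTAAATGCAaaacaggttca
TDP2 chr6:24650108-24650137, minus strand: tctaacaaaaaTAAATGCAtgaagagacat
RFK chr9:76386995-76387024, minus strand: gcttataaaagTAAATGCAttaaggccaag
TCP1 chr6:159778997-159779026, minus strand: tataacaatgtTAAATGCAattgtcttgta
EGFR chr7:55206566-55206595, plus strand: aggctcagatgAAATGCAtcaggtcctttg
UBE2C chr20:45816918-45816947, plus strand: tgtatattaaaTAAATGCAtttttgtcctt
The flanking bases differ from gene to gene. TDP2 and LIN7C each held 2 copies of the stretch in capitals, of which 1 is shown. Only copies of that stretch were counted, so these UTRs may hold other 7-base matches. A match is a description of the transcript, not a binding site.

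The higher genes were of more than 1 kind, as judged by where the control stood. For TGFBI, LTBP2 and CCDC80 the control was near library 1 and library 2 rose above both. TGFBI (ENSG00000120708.17; chromosome 5, 136028988 to 136063818), a matrix protein induced by TGF-beta, stood at 333, 48.6 and 1.83 CPM in library 1 and 1321, 389 and 7.37 CPM in library 2, with 221, 30.5 and 1.5 CPM in the controls. Library 2 was the highest of the 3 libraries in each line, although AGS expressed little. The log2 difference was 2.38 ± 0.23 (edgeR adjusted p = 0.00680). LTBP2, a matrix protein of the latent TGF-beta binding family, went from 14.2, 111 and 14.2 CPM to 86.3, 458 and 27.1 CPM (1.87 ± 0.28, adjusted p = 0.0237). CCDC80, a secreted matrix protein, went from 58.0, 14.2 and 4.31 CPM to 214, 46.7 and 11.2 CPM (1.68 ± 0.18, adjusted p = 0.0120). In LTBP2 the AGS difference was the smallest of the 3, with a log2 ratio of 0.89.

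MMP14 (ENSG00000157227.14; chromosome 14, 22836560 to 22849041), a membrane-bound metalloprotease, had the smallest p of the higher genes. It stood at 26.9, 62.1 and 143 CPM in library 1 and 84.1, 251 and 486 CPM in library 2, and its controls lay between, at 46.8, 103 and 292 CPM (1.80 ± 0.16, edgeR adjusted p = 0.00395). PIK3R1, the p85 regulatory subunit of PI3 kinase, went from 76.3, 22.4 and 68.2 CPM to 280, 48.0 and 181 CPM, with controls at 101, 46.0 and 104 CPM (1.46 ± 0.18, adjusted p = 0.0124). SMAD6, the inhibitory SMAD of BMP and TGF-beta signalling, went from 31.8, 10 and 0.95 CPM to 70.1, 30.4 and 5.03 CPM (1.58 ± 0.25, adjusted p = 0.0254). For these genes library 1 was the lowest and library 2 the highest library, save for SMAD6 in NCI-H1395, where the control at 8.65 CPM was the lowest.

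For PPIP5K2 and MCFD2 the picture was the other way round: library 2 was near the control and library 1 was low. PPIP5K2, an inositol pyrophosphate kinase, stood at 61.3, 20.9 and 13.1 CPM in library 1 and 158, 85.5 and 35.7 CPM in library 2, with controls at 188, 94.5 and 24.7 CPM (1.61 ± 0.19, edgeR adjusted p = 0.0122). MCFD2, part of a cargo receptor between endoplasmic reticulum and Golgi, stood at 92.3, 65.4 and 80.2 CPM in library 1 and 171, 321 and 220 CPM in library 2, with controls at 158, 226 and 247 CPM (1.54 ± 0.25, adjusted p = 0.0286). Without AGS the adjusted p of MCFD2 was 0.208. Of 38 higher genes with the same direction in all 3 lines and at least 1 CPM in a library of each, 7 had the control nearer to library 2 in all 3 lines and 13 nearer to library 1. The 7, of which most are named after their values were seen, were PPIP5K2, MCFD2, CD82, STK17B, GNG12, DESI2 and NCOA7.

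**Figure D2:**
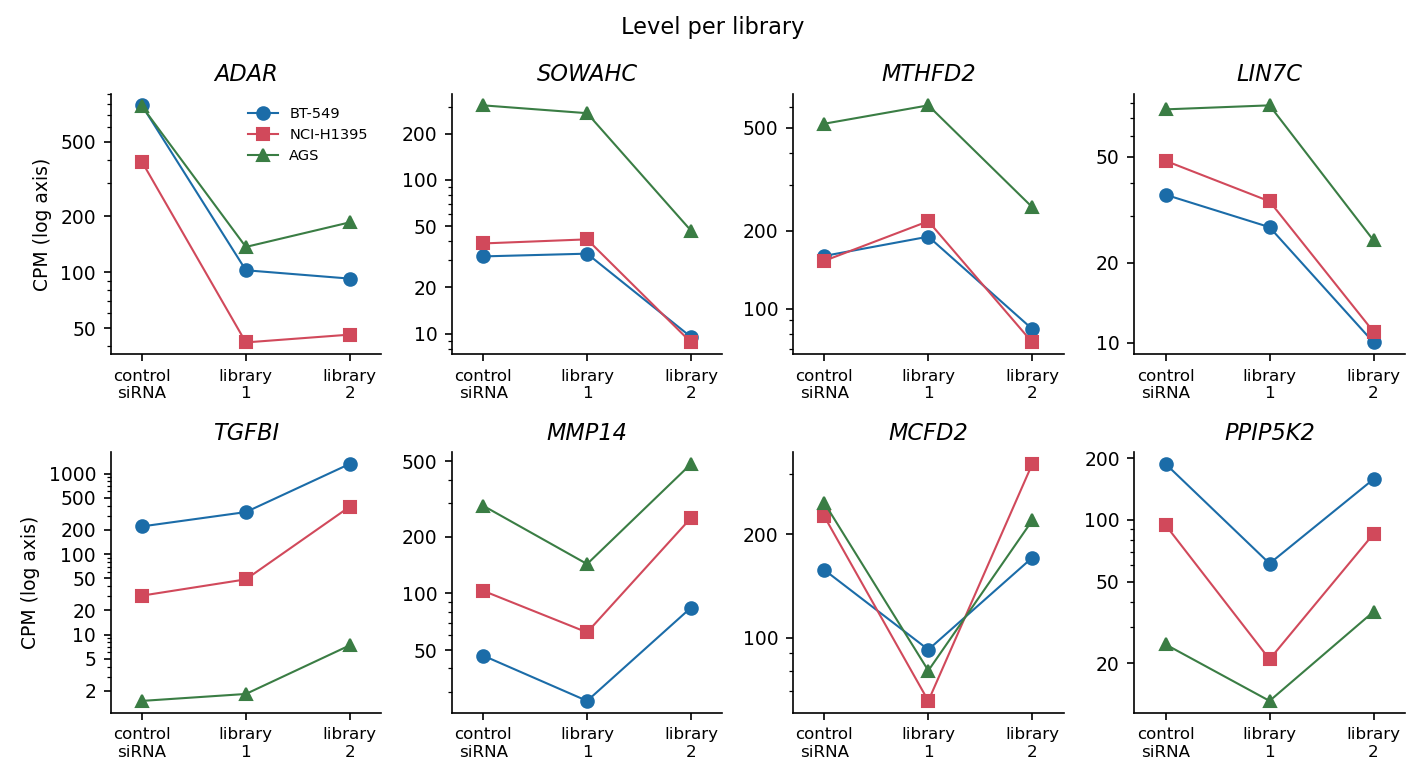
Level of 8 genes in every library, in CPM on a log axis, with the control siRNA, library 1 and library 2 of each cell line joined by a line. ADAR is low in both numbered libraries, SOWAHC, MTHFD2 and LIN7C are low in library 2 alone, TGFBI is high in library 2, MMP14 is lowest in library 1 and highest in library 2, and MCFD2 and PPIP5K2 are low in library 1 alone.

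The largest differences of all belonged to genes with few counts. LINC02593, a long noncoding RNA, and SAMD11 lie next to each other on chromosome 1 (916865 to 921016 and 923923 to 944575) and were higher by 3.44 ± 0.41 and 2.57 ± 0.36. LINC02593 had 6, 31 and 2 counts in library 1 and 62, 273 and 27 counts in library 2, and without NCI-H1395 its adjusted p was 0.0810. No source read here says whether reads were counted by strand, so reads of such neighbours may be shared. CACNA1G, a T-type calcium channel, had 14, 21 and 0 counts in library 1 and 188, 71 and 18 counts in library 2 (3.06 ± 0.54, edgeR adjusted p = 0.0437), and with protein-coding genes alone it was not called (adjusted p = 0.0594). LRRC3, PGM2L1, CADM4 and NPTXR, the rest of the 15, had log2 differences from 1.41 to 1.78. PGM2L1 makes glucose bisphosphate, CADM4 is an adhesion molecule and NPTXR is the neuronal pentraxin receptor.

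A second short sequence marked the higher end. ATATATG and TATATGA, which together spell ATATATGA, had the most positive standardized difference in the fit. They ranked 1 and 2 from the higher end in NCI-H1395 and AGS and 3 and 5 in BT-549, where TATATAT came first. Genes with ATATATG, held by 16.0% of UTRs, differed in mean log2 ratio by 0.051, 0.118 and 0.102 in the same order of lines, and for TATATGA (12.9% of UTRs) the values were 0.053, 0.116 and 0.095. Of 36 called higher genes with a UTR read, 18 (50%) held at least 1 of these words, against 21.5% of all genes, and 10 (27.8%) held all 8 bases, against 5.25%. Among the 7 higher genes whose control was nearer to library 2 the count was 6, all but CD82, and among the 12 with a UTR read whose control was nearer to library 1 it was 5. TGFBI and LTBP2 held neither word. The lower-end words were held by 13 of the 36 (36.1%, against 26.7% of all genes). The median UTR of the called higher genes was 2180 bases. The higher-end words too were picked on the fit that called these genes, so part of their excess was set by that choice.

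The matches are shown for 7 higher genes in the same way, with the bases of ATATATGA that are present in capitals.
MCFD2 chr2:46901904-46901933, minus strand: ttgaaagatttATATATGAtgaattctgga
PPIP5K2 chr5:103202122-103202151, plus strand: gttacagtgacATATATGctgcaatattta
STK17B chr2:196137352-196137381, minus strand: tttgtagcttcATATATGAcatgtttatat
GNG12 chr1:67703025-67703054, minus strand: tatgtatacatATATATGAtatgcagaagt
PIK3R1 chr5:68298744-68298773, plus strand: aaatgaaaaagATATATGAatatgacaaag
MMP14 chr14:22847570-22847599, plus strand: ttataattattATATATGAattccattcaa
CDKN2B chr9:22004694-22004723, minus strand: aaaacttgaaaATATATGAtggctcgtggg
MCFD2, PPIP5K2, STK17B and PIK3R1 each held 2 copies of the stretch in capitals, of which 1 is shown, and other 7-base matches were again not counted. PPIP5K2, STK17B, GNG12, PIK3R1 and CDKN2B also held a lower-end word, in STK17B with all 8 bases. CDKN2B was above the control in library 1 of each line.

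**Figure D3:**
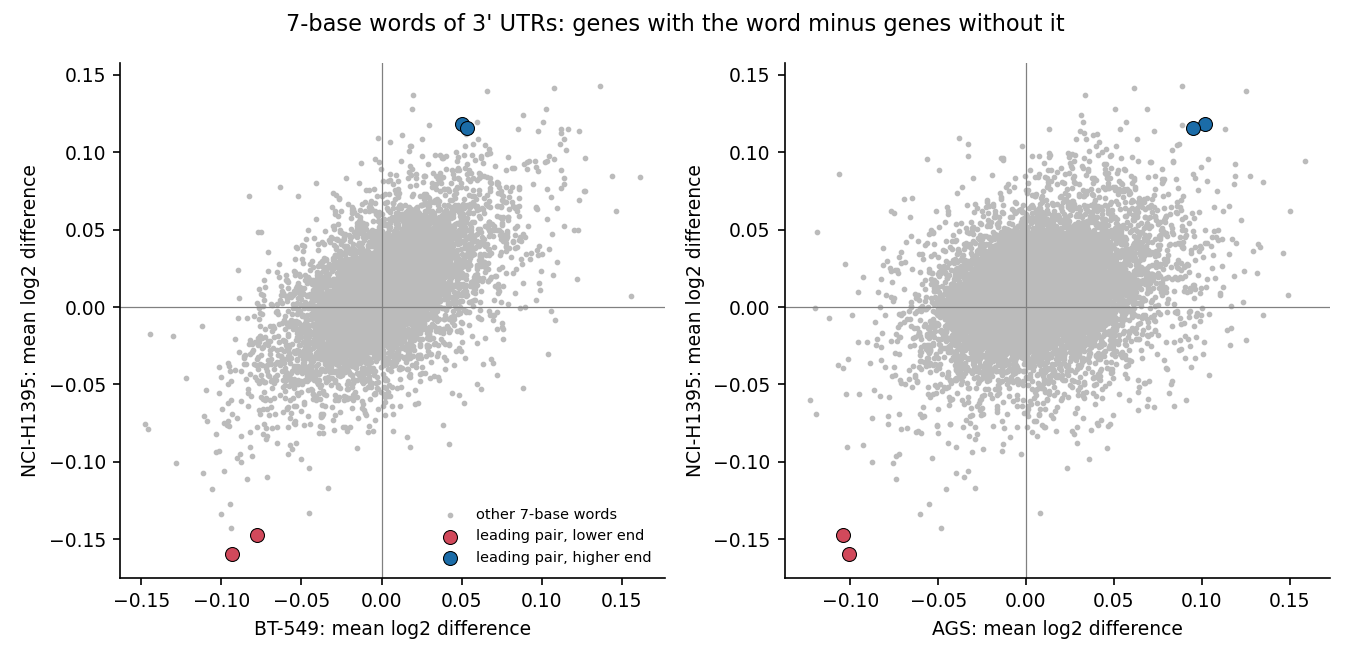
Each point is a 7-base word found in 3′ UTRs, at the mean log2 ratio of library 2 over library 1 of genes with the word minus that of genes without it, in NCI-H1395 (vertical) against BT-549 or AGS (horizontal). The leading pair of the lower end lies at -0.147 and -0.160 in NCI-H1395, and the leading pair of the higher end at 0.116 and 0.118.

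Set against the control of the same line, the lower-end word went with library 2 and the higher-end word with library 1 on average. The 591 genes with all 8 bases of TAAATGCA had an adjusted mean log2 ratio to the control of -0.113, -0.221 and -0.146 in library 2 of BT-549, NCI-H1395 and AGS, and of -0.014, -0.022 and -0.012 in library 1. The 532 genes with all 8 bases of ATATATGA had the reverse, with -0.098, -0.222 and -0.200 in library 1 and 0.004, 0.012 and -0.002 in library 2. For TAAATGCA the library 2 means were -0.051, -0.083 and -0.049 with 7 bases, 0.011, 0.021 and 0.004 with 6 and 0.026, 0.046 and 0.030 with none. For ATATATGA the library 1 means were -0.024, -0.025 and -0.019 with 7 bases, 0.022, 0.032 and 0.036 with 6 and 0.010, 0.018 and 0.014 with none. The 6-base mean was thus above that with no match for ATATATGA and below it for TAAATGCA. The words were chosen on the ratio of library 2 to library 1 in these samples, so that choice set the gap between the numbered libraries, and only where the control lay was not part of it. Both ratios share the control library of the line.

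**Figure D4:**
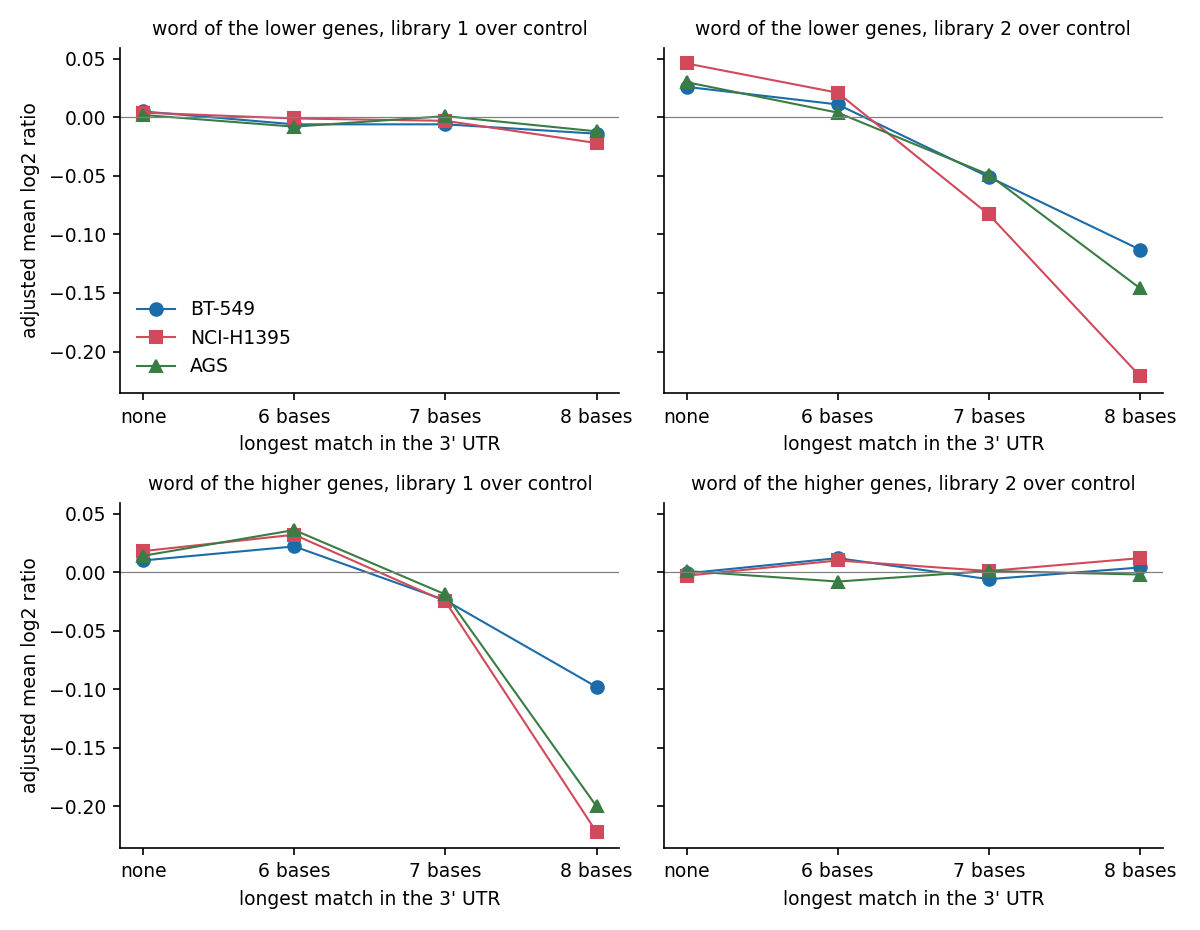
Mean log2 ratio to the control siRNA library, adjusted for UTR length and GC content, for genes grouped by the longest match in the 3′ UTR to TAAATGCA (top row) or ATATATGA (bottom row), in library 1 (left) and library 2 (right), with 1 line per cell line. With all 8 bases of the first word library 2 reaches -0.221, and with all 8 bases of the second library 1 reaches -0.222, both in NCI-H1395, while the other library stays between -0.022 and 0.012.

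The same letters were looked for in ADAR. Of its 11 annotated transcripts, 11 held TAAATGC and 11 held ATATATGA, each once in the longest coding transcript and ahead of the 3′ UTR. Of 2117 transcripts of like length, 35.8% held the first and 12.7% the second. AAATGCA lay in the 3′ UTR of ADAR, in 10 of the 11 transcripts (55.9% of those of like length hold it), and all 8 bases of TAAATGCA lay in 0 of them. The complements, GCAUUUA and CAUAUAU, stood at bases 2 to 8 of 0 of 2351 distinct mature human miRNAs in RefSeq. The ADAR stretches are shown with the words in capitals.
ADAR chr1:154601635-154601664, minus strand: ggcccgagataTAAATGCtgtgctaattga
ADAR chr1:154585311-154585340, minus strand: gcagagtcagcATATATGAttccaaaaggc
The sequences of the siRNAs were not in the sources read, and a link between them and these words was not tested.

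Genes that build ribosomes had medians below 0 in library 2 against library 1, with 1 gene called. Of 42 genes of the small-subunit processome, the particle that matures 18S rRNA, 39 had a fitted difference below 0 and 31 were lower in all 3 lines. The median was -0.39, against 0.02 over all genes tested, with -0.40, -0.29 and -0.40 in BT-549, NCI-H1395 and AGS. Over all genes tested, 7527 of 15882 were below 0 and 8352 above it. In all 3 lines 17.8% were lower and 19.2% higher, and 0.252% and 0.277% were called. These shares are the background to the counts of every list. WDR3 alone passed the test, from 164, 53.1 and 65.6 CPM in library 1 to 87.7, 28.4 and 21.4 CPM in library 2 (-1.14 ± 0.19, edgeR adjusted p = 0.0363). NAT10, an RNA acetyltransferase, and WDR36 had -0.73 ± 0.16 (adjusted p = 0.0727) and -0.65 ± 0.16 (0.112). Of 36 large-subunit biogenesis genes 35 were below 0 and 24 lower in all 3 lines, with a median of -0.32 (-0.20 without BT-549) and 0 called at the threshold, although 14 had an unadjusted p under 0.05. NOC3L, MAK16 and GNL3 led with -0.81 ± 0.16, -0.77 ± 0.17 and -0.70 ± 0.16 (adjusted p = 0.0678, 0.0883 and 0.0917). Against the control of the line the processome medians were 0.12, -0.05 and -0.01 in library 1 and -0.29, -0.37 and -0.33 in library 2. The ribosomal protein genes themselves had a median of -0.12, with 33 of 83 lower in all 3 lines.

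The lists were also split by the words, a split chosen after seeing the data. Among the 24 processome members whose UTR holds neither word family, 24 were below 0, with a median of -0.42, and among 26 such large-subunit genes 25 were, with a median of -0.22. Over all genes with neither word the median was 0.00, with 3134 of 6330 below 0. MYC target genes, a list that shares members such as GNL3 with those above, had 18 of 20 below 0 and a median of -0.33. RNA polymerase I and III genes had 24 of 33 below 0 and a median of -0.18, but -0.01 in AGS.

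Aminoacyl-tRNA synthetases of the cytosol, which load tRNAs with amino acids, had 19 of 20 genes below 0 and 14 lower in all 3 lines. The list's median was -0.44, with -0.43, -0.57 and -0.27 by line, and 13 genes had an unadjusted p under 0.05 although 0 were called. KARS1 stood at 185, 280 and 174 CPM in library 1 and 132, 195 and 108 CPM in library 2 (-0.57 ± 0.15, edgeR adjusted p = 0.131). GARS1 and EPRS1 had -0.58 ± 0.16 and -0.52 ± 0.15 (adjusted p = 0.135 and 0.149). Some synthetase genes are targets of the transcription factor ATF4, which drives the integrated stress response. That response is the brake on protein synthesis that PKR and its sister kinases set. The part of ATF4 in these differences was not tested.

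The integrated stress response list as a whole had 22 of 26 genes below 0 and a median of -0.35, which came largely from NCI-H1395 (-1.06, against -0.27 in BT-549 and 0.02 in AGS). Without NCI-H1395 the median was -0.03, and without AGS -0.66. In that line library 1 was above the control by a median of 1.34 and library 2 by 0.49. MTHFD2, described above, was the 1 member called. ATF3, a stress-induced transcription factor, stood at 4.48 CPM in the NCI-H1395 control, 56.8 CPM in library 1 and 25.2 CPM in library 2, and in AGS at 246, 426 and 304 CPM (-0.91 ± 0.18, edgeR adjusted p = 0.0575). ALDH1L2, a mitochondrial folate enzyme, had -1.24 ± 0.26 (adjusted p = 0.0701).

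Interferon-stimulated genes were lower in library 2 of BT-549 and NCI-H1395 in the median but not in AGS. Of 40 genes measured 37 were below 0 in the fit and 0 were called, with 12 at an unadjusted p under 0.05. Against 17.8% of all genes tested, only 9 of the 40 were lower in all 3 lines. Their medians were -0.54, -1.20 and 0.31 in the order BT-549, NCI-H1395, AGS. The fitted median was -0.43, and it was -0.12 without NCI-H1395 and -0.80 without AGS. Among 24 members with neither word family 24 were below 0, with a median of -0.42. IFIT2, an antiviral protein that binds RNA, stood at 334 CPM in the control of NCI-H1395, 497 CPM in library 1 and 130 CPM in library 2, and at 194, 248 and 198 CPM in AGS (-1.08 ± 0.26, edgeR adjusted p = 0.102). IFIT5 had -0.87 ± 0.19 (adjusted p = 0.0747). HERC5, the ligase of the ubiquitin-like ISG15, had -1.03 ± 0.29 (0.150) and was under 1 CPM in AGS. Against the control the list's median in library 2 was -0.59, -1.32 and 0.19, and in library 1 -0.06, 0.02 and -0.18.

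Of 12 sensors and adaptors ahead of those genes 8 were below 0 and 3 lower in all 3 lines, against 17.8% of all genes tested. Their median was -0.07 and 0 were called (3 lower at an unadjusted p under 0.05, against 6.50% of all genes tested). IFIH1, which encodes the double-stranded RNA sensor MDA5, went from 84.2, 376 and 176 CPM in library 1 to 54.2, 144 and 155 CPM in library 2 (-0.74 ± 0.21, edgeR adjusted p = 0.150). EIF2AK2, the gene of PKR, had -0.37 ± 0.15 (adjusted p = 0.310). The 16 MHC class I genes had a median of -0.06 (-0.21, -0.13 and 0.30 by line), with 3 lower in all 3 lines and 0 called. TAPBP, tapasin, was the closest of them to a call, at 84.0, 49.4 and 38.9 CPM in library 1 and 33.4, 15.2 and 31.6 CPM in library 2 (-1.12 ± 0.25, adjusted p = 0.0837).

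Of 25 mitosis genes 22 were below 0 and 17 lower in all 3 lines, and the median was -0.29, with -0.12, -0.13 and -0.57 by line (-0.12 without AGS). Library 1 was itself below the control, with list medians of -0.151, -0.782 and -0.300, against -0.309, -0.945 and -0.842 in library 2. UBE2C, the ubiquitin-conjugating enzyme of the anaphase-promoting complex, was called, from 194, 112 and 110 CPM to 121, 46.3 and 41.0 CPM (-1.13 ± 0.18, edgeR adjusted p = 0.0300). KIF2C and BIRC5, a mitotic kinesin and survivin, had -0.49 ± 0.15 and -0.42 ± 0.15 (adjusted p = 0.184 and 0.249). Of 33 DNA replication genes 24 were below 0 and 9 lower in all 3 lines, against 17.8% of all genes tested. The median of the list was -0.15 (-0.18, -0.34 and 0.06 by line). The 1 member called was CDC6, the loader of the MCM helicase, from 166, 53.8 and 192 CPM to 93.6, 22.7 and 118 CPM (-0.92 ± 0.16, adjusted p = 0.0429). It was not called without NCI-H1395 (0.183), with library totals (0.0646) or over protein-coding genes (0.0513). UBE2C and CDC6 both hold a lower-end word, as 26.7% of all genes with a UTR read do, and CDC6 holds a higher-end word too. Of 20 homologous recombination and Fanconi genes 17 were below 0 (median -0.26) and 0 were called, with FANCM at -0.53 ± 0.19 (adjusted p = 0.241). The gene of the CDK inhibitor p15, CDKN2B, rose from 107, 58.1 and 37.0 CPM to 177, 114 and 103 CPM (1.05 ± 0.18, adjusted p = 0.0356), while CDKN1A (p21) had 0.18 ± 0.18 (0.713).

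TGF-beta and SMAD target genes were higher in library 2, and of the pathway lists they had the largest median above 0. Of 22 genes 19 were above 0, 13 were higher in all 3 lines and 3 were called, TGFBI, LTBP2 and SMAD6. The median was 0.66, with 0.64, 0.77 and 0.54 in BT-549, NCI-H1395 and AGS. Among 12 members with neither word family 11 were above 0, with a median of 0.57. Against the control, library 2 had medians of 0.86, 1.25 and 0.12 and library 1 of 0.17, 0.19 and -0.28.

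Collagens and their processing enzymes had 17 of 20 genes above 0 and 11 higher in all 3 lines, with a median of 0.61 (0.33, 0.69 and 0.79 by line). COL6A1 was called. It stood at 24.0, 165 and 93.7 CPM in library 1 and 47.1, 369 and 203 CPM in library 2, with controls at 46.1, 241 and 163 CPM (1.08 ± 0.15, edgeR adjusted p = 0.0175). COL6A2, its partner chain in collagen VI, had 0.97 ± 0.18 (adjusted p = 0.0511), and LOXL1, a collagen crosslinking enzyme, 1.02 ± 0.22 (0.0704). Genes used as markers of endothelial cells and fibroblasts summed to 199, 17.4 and 20.9 CPM in library 1 and 218, 19.4 and 40.6 CPM in library 2. THY1 made up most of the BT-549 sums, at 188 and 199 CPM, and PDGFRA most of the AGS sums, at 17.3 and 34.2 CPM. Tumour lines can express such genes themselves. Of 13 such genes 8, 8 and 9 were under 1 CPM in all 3 libraries of the line. The 5 that could be tested were all above 0 in the fit, with a median of 0.77 and 0 called. Of these 5 markers 2 were higher in all 3 lines. The median was that of PDGFRB (0.77 ± 0.57), at 1.09 CPM or less in these libraries. RGS5 went from 6.8, 10.9 and 2.13 CPM to 11.5, 7.4 and 1.83 CPM. The part of such markers in the TGF-beta and matrix genes was not tested. The 17 mesenchymal markers tested had a median of 0.15, with 0 called.

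**Figure D5:**
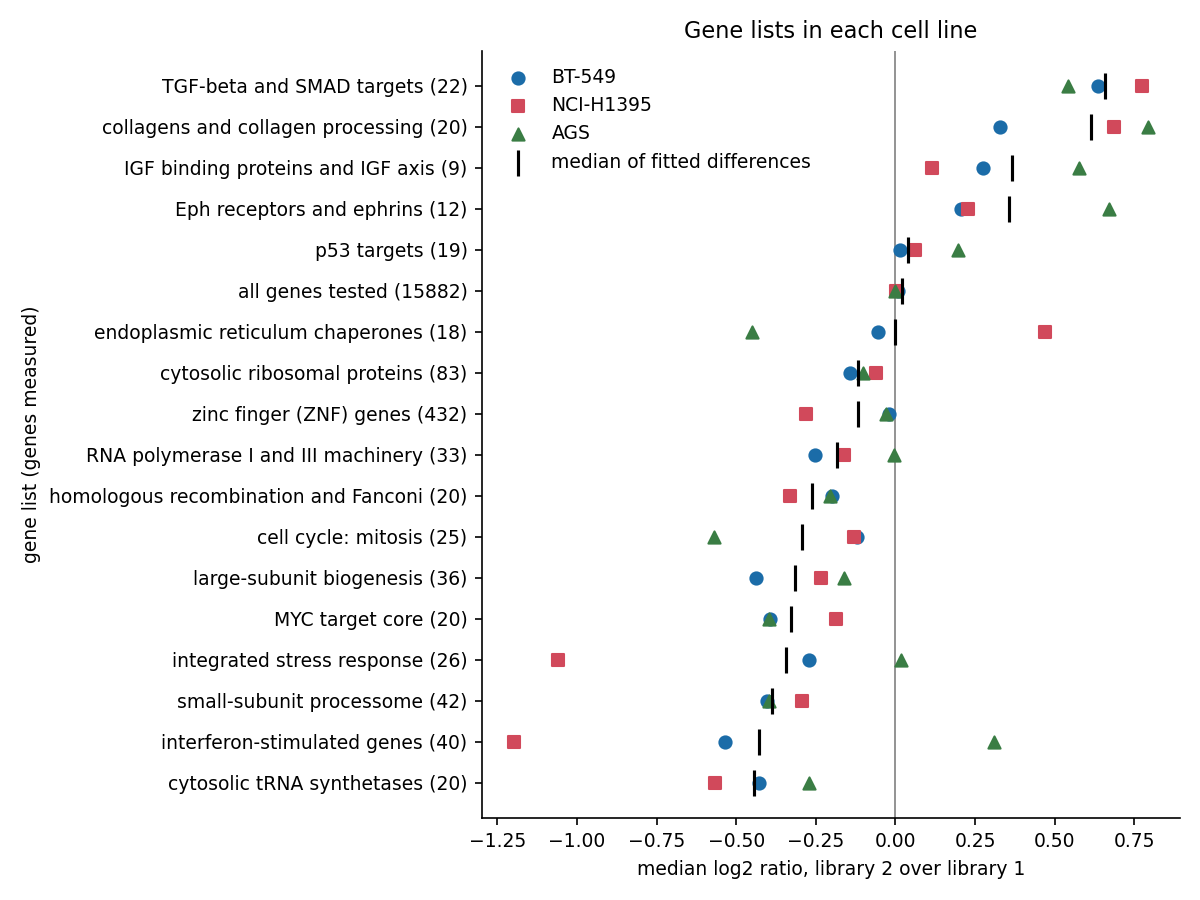
Median log2 ratio of library 2 over library 1 for 17 gene lists and for all genes tested, with the number of genes measured in brackets. Coloured points are the 3 cell lines and black bars the median of the fitted differences. The lists at the top (0.66 for TGF-beta and SMAD targets) and the ribosome and tRNA synthetase lists at the bottom keep 1 side of 0 in all lines, while interferon-stimulated genes lie at -1.20 in NCI-H1395 and 0.31 in AGS.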

How the data were processed

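Poly(A)+ RNA was sequenced, and the authors trimmed reads with fastp 0.23.4, aligned them with STAR 2.7.11a to hg38 and counted them with featureCounts 2.0.6, per the submitters' processing notes. The deposited table holds raw counts of reads per gene for all 14 libraries. Strand setting and annotation release were not given in the sources used here. Of 62702 lines, 3 that break up 1 gene were not used.

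Library 2 was tested against library 1 with edgeR 4.0.16 (R 4.3.3), quasi-likelihood fits on TMM-scaled counts with cell line as a block (pairing by line, from the labels; 6 libraries, 2 residual degrees of freedom), filterByExpr, and Benjamini-Hochberg adjustment over 15882 genes. The biological coefficient of variation was 19.7%. The variance of each gene was drawn toward that of other genes, with a median of 8.11 prior degrees of freedom against the 2 residual. Levels are CPM scaled over 9 libraries, and ratios within a line use a prior count of 2. Precision is limited by 3 pairs. On simulated counts of 15347 genes, the test found 76% of genes changed 2-fold and 98% of those changed 4-fold. Of 199 calls 25 were unchanged genes, so the threshold was not held. The word scan was also tested on simulated data.

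Named genes are ADAR, ADARB1, NOP14, the 15 largest differences each way among called genes with 1 direction and 1 CPM in all 3 lines, and the 3 smallest p of a list. The comparison, the 50 lists and the tests were chosen with earlier results of these data known. No test was made of a list. Alternatives were other scalings and filters, DESeq2 1.42.0, no block, added controls, protein-coding genes, each line left out, pooled UTRs and, added after seeing the data, list members without the words.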

Additional observations from a re-analysis of the deposited data

Results flagged for a closer look

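In 2 of the lists with at least 5 genes measured the line medians lay on opposite sides of 0 by more than 0.3 on the log2 scale. Interferon-stimulated genes had medians of -0.536, -1.198 and 0.309 in BT-549, NCI-H1395 and AGS. Endoplasmic reticulum chaperones had a median of 0.471 in NCI-H1395 and -0.449 in AGS. The lung lineage markers, with 2 genes measured, had medians of -1.004, -0.391 and 0.893. Each line has 1 pair of libraries, and the difference between lines was not tested.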

How the results depend on the processing

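Cell lines pair the libraries. Without the replicate block edgeR called 0 genes higher and 0 lower (43 at an unadjusted p under 0.05). With it the counts of higher and lower genes were 44 and 40. They were 61 and 51 with median-ratio scaling and 35 and 33 over protein-coding genes, 304 and 304 without a count filter, 83 and 60 with at least 10 counts in each library, 265 and 230 with DESeq2 and 153 and 141 with the controls added. Leaving out 1 line gave from 59 to 339 higher genes and from 38 to 344 lower, with the highest counts without AGS. All 30 genes with the largest differences kept their direction under every alternative that could be fitted, and none of them stayed called without the block. LINC02593, STC1 and CDC6 were not called without NCI-H1395, MCFD2 and NOTUM without AGS, FHIP1A and CDC6 with library totals, CACNA1G, PGM2L1 and CDC6 over protein-coding genes, and EGR1 with controls added. The medians of the ribosome, tRNA synthetase, MYC, TGF-beta and collagen lists kept their sign under all alternatives. With UTRs pooled over transcripts the word pairs again took the first 2 ranks at each end. Depth limits genes near 1 CPM, such as CACNA1G.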

Other observations

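Of 12 Eph receptors and ephrins 10 had a fitted difference above 0, 7 were higher in all 3 lines and 0 were called (6 at an unadjusted p under 0.05, all higher), with a median of 0.36. EPHB2, a receptor of ephrin-B ligands, stood at 1.03, 27.1 and 37.3 CPM in library 1 of BT-549, NCI-H1395 and AGS and at 20.3, 117 and 68.9 CPM in library 2 (2.15 ± 0.47, edgeR adjusted p = 0.0923). The Notch list had 12 of 18 genes above 0 and a median of 0.08, with -0.13, -0.03 and 0.28 by line. NOTCH3, a receptor, was called higher, from 18.2, 9.60 and 132 CPM to 50.9, 24.2 and 310 CPM (1.34 ± 0.16, adjusted p = 0.0122), and POGLUT3 was called lower. NOTUM, a secreted Wnt antagonist, went from 16.1 to 120 CPM in AGS and was called (2.25 ± 0.36, adjusted p = 0.0303), but not without AGS (0.183). In BT-549 it was under 1 CPM in both libraries. CCN2, a YAP target, had 0.97 ± 0.18 (adjusted p = 0.0542), but the list of 20 YAP targets had a median of 0.07 and 0 called.

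Nuclear noncoding RNAs were higher in all 3 lines in 6 of 8 measured, with a median of 0.29 and 0 called (3 at an unadjusted p under 0.05). NEAT1, the scaffold of paraspeckles, stood at 517, 400 and 1075 CPM in library 1 and 634, 516 and 1496 CPM in library 2 (0.37 ± 0.14, edgeR adjusted p = 0.272). Of 23 host genes of small nucleolar RNAs 16 were below 0 and 11 lower in all 3 lines (median -0.20), led by ZFAS1 (-0.60 ± 0.15, adjusted p = 0.118). Zinc finger (ZNF) genes had 281 of 432 below 0 and a median of -0.12, with -0.02, -0.28 and -0.03 by line. AGO2, the Argonaute that cuts the targets of siRNAs, had -0.44 ± 0.15 (adjusted p = 0.205). Its list of 17 genes of the microRNA and siRNA machinery had 8 above 0, a median of -0.10 and 0 called. The p53 target list had 10 of 19 genes above 0 and a median of 0.04.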
